A study of Rattus norvegicus with 28 samples.

Results

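The transporters that take phosphate, glucose and fructose back from the filtrate were followed in rat kidney across 2 strains and 2 surgical states. They were chosen by name: 9 solute carrier genes, Slc34a1, Slc34a3, Slc20a1, Slc20a2, Slc5a1, Slc5a2, Slc2a1, Slc2a2 and Slc2a5, of 14217 genes named on the array. All 9 had a probe set, 11 in all of 31042 tested, and each gene is given by its probe set of highest mean over the 28 arrays. Slc34a1 and Slc20a2 each had a second probe set, whose values are given beside the first.

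The kidneys came from female rats of SBH/y and SBN/y, known as the Sabra strains that develop and that resist salt-sensitive hypertension, and the study concerned the pathophysiology of proteinuria. The 4 groups were SBH/y with 1 kidney after uninephrectomy, SBH/y with 2 kidneys after a sham operation, SBN/y with 1 kidney after uninephrectomy and SBN/y with 2 kidneys after a sham operation, with 7 arrays in each. All animals ate standard chow and were 5 months old, 4 months past the operation. The labels do not say whether the 7 samples of a group are 7 animals, so the p-values cover only the spread from sample to sample, which may be technical.

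Phosphate and glucose pass freely into the filtrate and are taken back mainly in the proximal tubule, by carriers in the brush border that use the sodium gradient. Phosphate uptake is set chiefly by the number of carriers of the Slc34 family in that membrane, which parathyroid hormone and FGF23 lower. Glucose enters the cell with sodium through the Slc5 carriers, of which Slc5a2 works early in the tubule and Slc5a1 late, and leaves towards the blood through the Slc2 carriers, which need no sodium.

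In brief, Slc34a3 was lower after uninephrectomy in both strains. It fell by 22.3% in SBH/y (log2 difference -0.36 ± 0.07, SE) and fell by 24.6% in SBN/y (-0.41 ± 0.07). After uninephrectomy Slc5a2 fell by 22.5% in SBN/y. This call was lost with only the SBN/y groups in the fit (adjusted p = 0.0919), as was that of Slc34a3 in SBN/y. Slc5a1 fell by 28.5% in SBH/y, a call lost with a clock gene score as covariate (-0.26, adjusted p = 0.708), as was that of Slc34a3 in SBH/y (-0.42, adjusted p = 0.108). Neither Slc5a2 nor Slc5a1 was shown to differ between the strains in its uninephrectomy effect. Slc2a2 was higher in SBH/y than in SBN/y, 1.81-fold after uninephrectomy and 1.42-fold with both kidneys. Slc34a1, Slc20a1 and Slc20a2 passed the test in none of the 6 comparisons by their first probe set.

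All values are log2 signals as the authors deposited them, so a difference of 1 is a doubling, and a test was passed where limma's p, adjusted over all 31042 probe sets by the Benjamini-Hochberg method, was under 0.05. Array medians lay between 5.72 and 5.77, and each of the 11 probe sets stood above its array's median on all 28 arrays. Levels of different probe sets are not on a common scale and are not set against each other. In whole kidney, fewer cells of a type and less RNA per cell cannot be told apart. As markers of kidney tissue, Slc4a4, the bicarbonate cotransporter of the proximal tubule, had means of 11.59, 11.63, 11.19 and 11.27 in the groups in the order above. Synpo, a podocyte marker, had means of 9.05, 9.39, 9.50 and 9.53. Fat markers varied between arrays, with means per array of -0.74 to 1.06 relative to the mean over arrays. With 2 kidneys, 2 of 5 fat markers were lower in SBH/y than in SBN/y and 0 higher (8.31% and 9.64% of all probe sets). Ucp1, named after its values were seen, then averaged 5.48 in SBH/y and 8.23 in SBN/y (-2.74 ± 0.38, adjusted p = 1.99e-06).

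The promoters of the 3 genes lower after uninephrectomy are shown with that of Slc34a1, the close relative of Slc34a3, since HNF1 factors are known from mouse and human to drive transporter genes of the proximal tubule. Each run holds 250 bases before to 50 after the start of the gene, 5′ to 3′ on the gene's strand, from RefSeq on the rat build GRCr8. Capitals mark the matches a script found, to the HNF1 motif in Slc34a1, Slc34a3 and Slc5a2 and to the E-box in Slc5a1.
Slc34a1, chr17:9238934-9239233, minus strand: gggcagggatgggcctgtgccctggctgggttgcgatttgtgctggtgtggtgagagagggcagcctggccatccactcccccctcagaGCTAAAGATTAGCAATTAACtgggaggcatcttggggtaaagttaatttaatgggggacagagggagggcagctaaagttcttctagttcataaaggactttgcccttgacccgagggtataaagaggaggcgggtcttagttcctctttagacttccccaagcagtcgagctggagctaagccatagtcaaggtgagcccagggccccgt
Slc34a3, chr3:28447948-28448247, minus strand: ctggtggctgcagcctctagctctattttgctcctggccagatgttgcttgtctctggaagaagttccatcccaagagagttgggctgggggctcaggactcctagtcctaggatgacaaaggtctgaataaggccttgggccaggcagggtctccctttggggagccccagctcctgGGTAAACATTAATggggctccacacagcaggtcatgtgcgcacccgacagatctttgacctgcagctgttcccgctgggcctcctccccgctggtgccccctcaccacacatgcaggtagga
Slc5a2, chr1:192277371-192277670, plus strand: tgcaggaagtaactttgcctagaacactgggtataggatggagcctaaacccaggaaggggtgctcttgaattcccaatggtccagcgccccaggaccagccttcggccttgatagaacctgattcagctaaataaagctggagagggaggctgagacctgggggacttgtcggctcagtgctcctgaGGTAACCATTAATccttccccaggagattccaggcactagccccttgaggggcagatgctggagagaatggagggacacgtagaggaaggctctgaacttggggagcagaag
Slc5a1, chr14:81843035-81843334, minus strand: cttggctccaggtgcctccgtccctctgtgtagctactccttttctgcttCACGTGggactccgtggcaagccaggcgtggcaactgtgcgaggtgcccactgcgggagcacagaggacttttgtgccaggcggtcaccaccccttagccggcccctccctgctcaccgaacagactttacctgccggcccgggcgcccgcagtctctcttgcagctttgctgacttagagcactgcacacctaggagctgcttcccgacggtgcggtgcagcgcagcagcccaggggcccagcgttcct

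The HNF1 motif was searched as the half-site GTTAAT, 1 base of any kind and the reverse complement ATTAAC, 13 letters with up to 3 mismatches on either strand, and 2920 of 33469 rat promoters of the same length held a match (8.72%). Slc34a3 held GGTAAACATTAAT at 72 to 60 bases before its start, and Slc5a2 held the closely similar GGTAACCATTAAT at 62 to 50 bases before its start, each with 3 mismatches. Slc34a1 held 2 overlapping matches, at 161 to 149 and 154 to 142 bases before its start, also with 3 mismatches each. Slc5a1 held no HNF1 match and 1 E-box, CACGTG, the site that clock activators such as Bmal1 are known to bind, at 200 to 195 bases before its start. The E-box was present in 2148 promoters (6.42%). The promoter table held 7 of the 9 genes, without Slc20a1 and Slc20a2, and the other 3 (Slc2a1, Slc2a2 and Slc2a5) held neither motif. For Slc2a2 and Slc2a5 the stretch searched lay inside the gene, past its listed first base, so the sequence at that base was not searched. The motifs were picked after the expression values were seen, and a match describes letters and not a bound site.

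Slc34a3 encodes NaPi-IIc, the sodium phosphate cotransporter whose loss in people causes rickets with high urinary calcium. In SBH/y its lowest, median and highest values were 9.69, 9.83 and 10.00 with 1 kidney, against 10.09, 10.20 and 10.28 with 2 kidneys. In SBN/y they were 9.19, 9.65 and 9.83 with 1 kidney, against 9.85, 10.05 and 10.13 with 2 kidneys. In both strains every array with 1 kidney lay below every array with 2 kidneys. The fall passed limma's test in SBH/y (adjusted p = 0.00141) and in SBN/y (adjusted p = 0.00786), and averaged over the strains it was -0.39 ± 0.05 (adjusted p = 1.44e-05). The difference between the strains' effects, SBH/y less SBN/y, was 0.04, with a 95% confidence interval of -0.17 to 0.25 (adjusted p = 0.94). Between the strains, Slc34a3 was higher in SBH/y by 0.22 ± 0.07 after uninephrectomy (adjusted p = 0.0299), and the difference with both kidneys was 0.18 ± 0.07 (adjusted p = 0.10). The strain call with 1 kidney was lost under quantile normalization (0.19, adjusted p = 0.0588), with only the groups compared in the fit (adjusted p = 0.0819), and without any of SBH/y replicates 2 and 3 or SBN/y replicates 1, 2 and 5 with 1 kidney, over values of 0.15 to 0.25. With both kidneys the strain difference passed with only the groups compared (adjusted p = 0.0316) and without SBN/y replicate 2 with 1 kidney.

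Slc34a1 encodes NaPi-IIa, the main phosphate carrier of the rodent brush border. Its values with 1 kidney ran between 12.87 and 13.04 (median 12.95) in SBH/y, against 12.96 and 13.15 (median 13.00) with 2 kidneys. In SBN/y they ran between 12.70 and 12.97 (median 12.91) with 1 kidney, against 12.87 and 13.10 (median 13.00) with 2 kidneys. The groups overlapped throughout. The uninephrectomy difference was -0.08 (95% confidence interval -0.17 to 0.02) in SBH/y and -0.10 ± 0.05 in SBN/y, with adjusted p of 0.373 and 0.542. The first interval did not reach the -0.36 of Slc34a3. The Slc34a1 probe set had a mean of 12.97, at percentile 99.9 of all probe sets, and that of Slc34a3 9.92, at 95.6. Whether sizes of change read alike at these levels was not tested. Averaged over the strains, the Slc34a1 difference was -0.09 ± 0.03 (adjusted p = 0.118), which passed with trended and robust variances (adjusted p = 0.0493). The second probe set, with a mean of 10.78, gave -0.09 ± 0.08 in SBH/y and -0.10 ± 0.08 in SBN/y. Its average over the strains was -0.09 ± 0.06 (adjusted p = 0.386). Its strain differences were -0.07 and -0.08, where the first probe set gave 0.07 and 0.05, and none of the 4 passed the test.

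Slc20a1 and Slc20a2 encode PiT-1 and PiT-2, phosphate carriers of a second family, of which PiT-2 also sits in the brush border of the rat. Slc20a1 averaged 8.79 ± 0.06 with 1 kidney and 8.74 ± 0.05 with 2 kidneys in SBH/y, and 8.89 ± 0.08 and 8.79 ± 0.05 in the same order in SBN/y (SD, n = 7 each). None of its differences passed, the nearest being the strain difference after uninephrectomy, -0.10 ± 0.04 (adjusted p = 0.0884), which passed under quantile normalization (-0.12, adjusted p = 0.0164). Averaged over the strains, the uninephrectomy difference was 0.08 ± 0.03 (adjusted p = 0.0965), which also passed under quantile normalization (adjusted p = 0.0428) and without SBH/y replicate 6 with 1 kidney. Slc20a2 averaged 7.17 ± 0.10 and 7.24 ± 0.12 in SBH/y with 1 and 2 kidneys, and 7.13 ± 0.15 and 7.05 ± 0.20 in SBN/y. With both kidneys the SBH/y mean of Slc20a2 stood 0.19 ± 0.07 above that of SBN/y (adjusted p = 0.0877). The second probe set, with a mean of 6.59, gave the same 0.19 ± 0.06 and passed (adjusted p = 0.0394). The first passed with array weights (0.24, adjusted p = 0.0156) and without SBH/y replicate 6 or SBN/y replicates 1 or 2 with 2 kidneys, over values of 0.14 to 0.23.

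**Figure D1:**
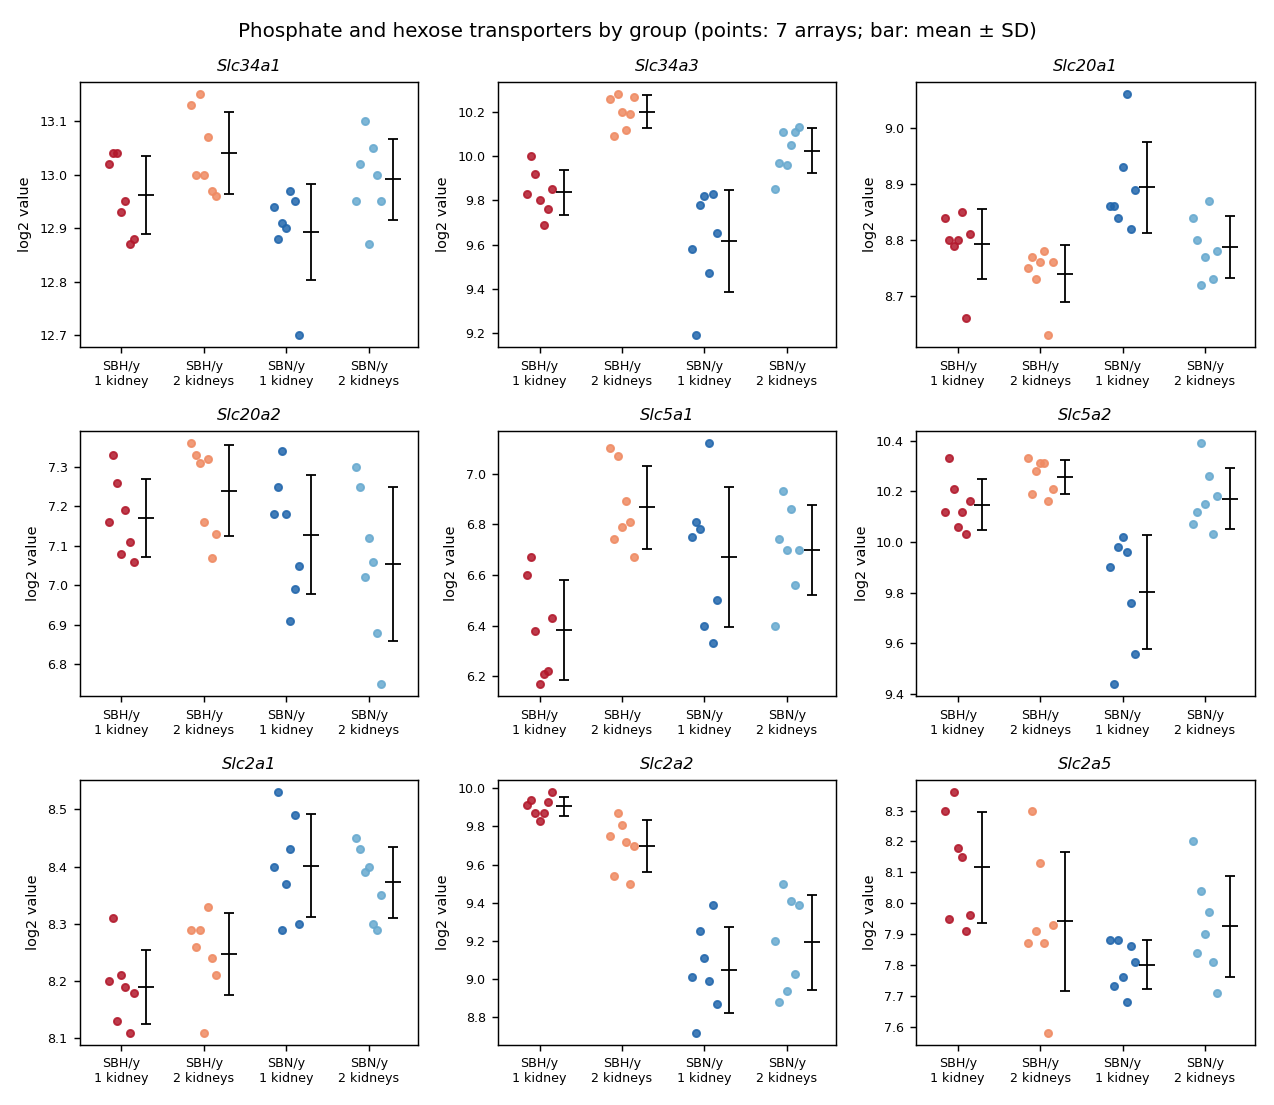
Log2 values of the 9 transporter genes (vertical axes, each with its own scale) in the 4 groups of 7 arrays; points are arrays and bars the mean with its SD. The Slc34a3 points with 1 kidney, at 9.69 to 10.00 in SBH/y and 9.19 to 9.83 in SBN/y, lie below those of the same strain with 2 kidneys.

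Slc5a2 encodes SGLT2, the early tubular cotransporter that takes up most filtered glucose and the target of the gliflozin drugs. In SBN/y its lowest, median and highest values were 9.44, 9.90 and 10.02 with 1 kidney, against 10.03, 10.15 and 10.39 with 2 kidneys. In SBH/y they were 10.03, 10.12 and 10.33 with 1 kidney, against 10.16, 10.28 and 10.33 with 2 kidneys. The SBN/y groups did not overlap, while the SBH/y groups did. The fall in SBN/y was -0.37 ± 0.07 (adjusted p = 0.0153), and the difference in SBH/y was -0.11 (95% confidence interval -0.26 to 0.04, adjusted p = 0.423). The difference between these effects, 0.26 ± 0.10, did not pass (adjusted p = 0.264), so the strains were not shown to differ in it. With 1 kidney Slc5a2 was higher in SBH/y than in SBN/y by 27.0%, with no overlap of the arrays (0.35 ± 0.07, adjusted p = 0.000548). With both kidneys the strain difference was 0.08 ± 0.07 (adjusted p = 0.479).

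In SBN/y the falls of Slc34a3 and Slc5a2 shared an array: replicate 2 of the 1-kidney group held the lowest value of its group for Slc34a3 (9.19), Slc5a2 (9.44) and Slc2a2 (8.72). It also had the lowest mean of the early proximal tubule markers among all 28 arrays (-0.36, relative to the mean over arrays) and the highest Havcr1 of its group (5.71). Its means of thick ascending limb and of collecting duct markers, 0.38 each, were the highest of the 28 arrays. Its fat marker mean was 1.02, against -0.74 to 0.05 in the other arrays of its group. Its injured-tubule mean was 0.06, as in replicate 7. The part of tissue make-up in these falls was not tested. Without replicate 2 Slc34a3 was lower after uninephrectomy by -0.34 (adjusted p = 0.00973) and Slc5a2 by -0.31 (adjusted p = 0.0329). When only the 2 SBN/y groups were fitted, neither passed, with adjusted p of 0.0676 for Slc34a3 and 0.0919 for Slc5a2.

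Slc5a1 encodes SGLT1, the late, high-affinity glucose and galactose cotransporter, which is also the main glucose carrier of the intestine. In SBH/y its lowest, median and highest values were 6.17, 6.38 and 6.67 with 1 kidney, against 6.67, 6.81 and 7.10 with 2 kidneys. In SBN/y they were 6.33, 6.75 and 7.12 with 1 kidney, against 6.40, 6.70 and 6.93 with 2 kidneys. The SBH/y groups met at a single value, and the SBN/y groups overlapped widely. The fall in SBH/y was -0.48 ± 0.10 (adjusted p = 0.00262), and the difference in SBN/y was -0.03 (95% confidence interval -0.24 to 0.18, adjusted p = 0.982). The difference between the effects was -0.45 ± 0.15 and did not pass (adjusted p = 0.13). With 1 kidney Slc5a1 was lower in SBH/y than in SBN/y by -0.29 ± 0.10 (adjusted p = 0.0468), a call lost in 14 of the 28 fits that left out 1 array, over which the value ran between -0.34 and -0.21, and lost under median centring (adjusted p = 0.0573), with only the groups compared in the fit (adjusted p = 0.0796) and without the 2 arrays of lowest weight (-0.26, adjusted p = 0.0953). Of those 14 arrays, SBH/y replicates 3 to 7 and SBN/y replicates 1, 2, 3 and 5 had 1 kidney, and SBH/y replicates 4 and 5 and SBN/y replicates 2, 4 and 7 had 2 kidneys. With both kidneys the SBH/y mean stood 0.17 ± 0.10 above that of SBN/y (adjusted p = 0.292).

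**Figure D2:**
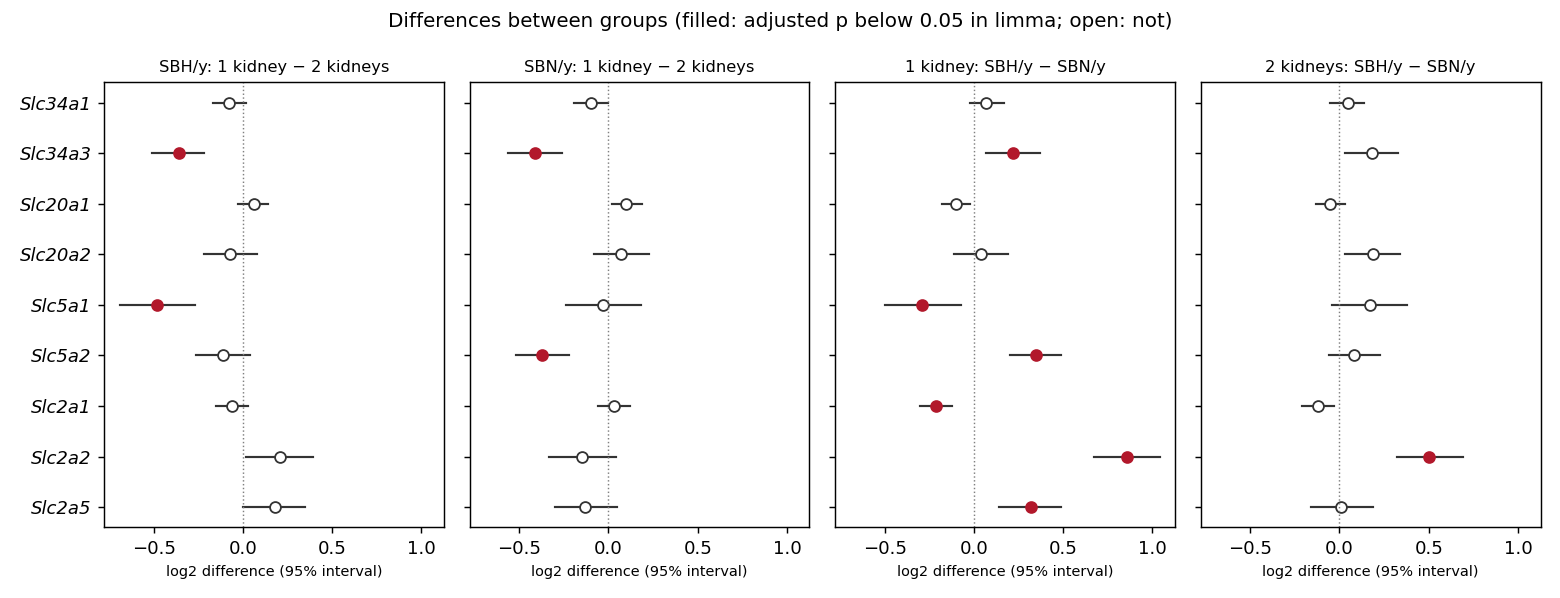
Log2 differences of the 9 transporters (horizontal) in the 4 comparisons of 1 group with another, with 95% confidence intervals from limma; filled points passed the test. Slc2a2 lies to the right in both strain comparisons (0.86 and 0.50), and Slc34a3 to the left in both uninephrectomy comparisons (-0.36 and -0.41).

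Clock genes, which cycle over the day, differed between the same SBH/y groups, and the 2 arrays that stood apart in them were also at the edge of their groups for Slc5a1. A clock gene score, the mean of Bmal1, Npas2 and Clock and of 8 genes of the opposite phase with the sign turned, lay between -1.2051 and -0.7873 in 6 of the 7 SBH/y arrays with 1 kidney, against 0.4384 to 0.6802 with 2 kidneys. The remaining 1-kidney array of SBH/y, replicate 2, scored 0.6608 and held the group's highest values of Slc5a1 (6.67), Slc34a3 (10.00) and Slc5a2 (10.33), and of 6 of the 9 transporters. In SBN/y, 6 of the 7 arrays with 1 kidney scored 0.1675 to 0.5876, against -0.2826 to 0.4676 with 2 kidneys, and replicate 6 with 1 kidney scored -0.885 and had that group's lowest Slc5a1 (6.33).

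With the score as a covariate the SBH/y uninephrectomy difference of Slc5a1 was -0.26 ± 0.15 (adjusted p = 0.708) and that of Slc34a3 -0.42 ± 0.11 (adjusted p = 0.108), so neither passed. The value of Slc34a3 was as large as without the covariate and its error wider, while that of Slc5a1 was smaller. The score and the SBH/y groups nearly coincide, and the share of either in these results cannot be told apart there. With the covariate Slc2a5 (0.24, adjusted p = 0.184), Slc5a1 (-0.12, adjusted p = 0.616) and Slc34a3 (0.18, adjusted p = 0.266) also lost their strain calls with 1 kidney, while Slc2a2 (0.72), Slc5a2 (0.39) and Slc2a1 (-0.17) kept theirs. Averaged over the strains, the uninephrectomy calls of Slc5a2 (-0.21, adjusted p = 0.0882) and Slc5a1 (-0.16, adjusted p = 0.453) were lost with the covariate. In SBN/y both uninephrectomy calls held, at -0.40 for Slc34a3 (adjusted p = 0.0118) and -0.38 for Slc5a2 (adjusted p = 0.0146). The 2 arrays that stood apart in the score were also left out, a choice made after seeing the data. The SBH/y falls were then -0.53 for Slc5a1 and -0.39 for Slc34a3 (adjusted p of 0.000518 and 0.000467). The strain by uninephrectomy difference of Slc5a1 passed (-0.56, adjusted p = 0.0218). The SBH/y array left out held its group's highest Slc5a1 and Slc34a3, and the SBN/y array its group's lowest Slc5a1. Leaving them out could therefore only widen these differences, and no conclusion is drawn from it. The sources used here do not give the time of day at which tissue was collected.

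**Figure D3:**
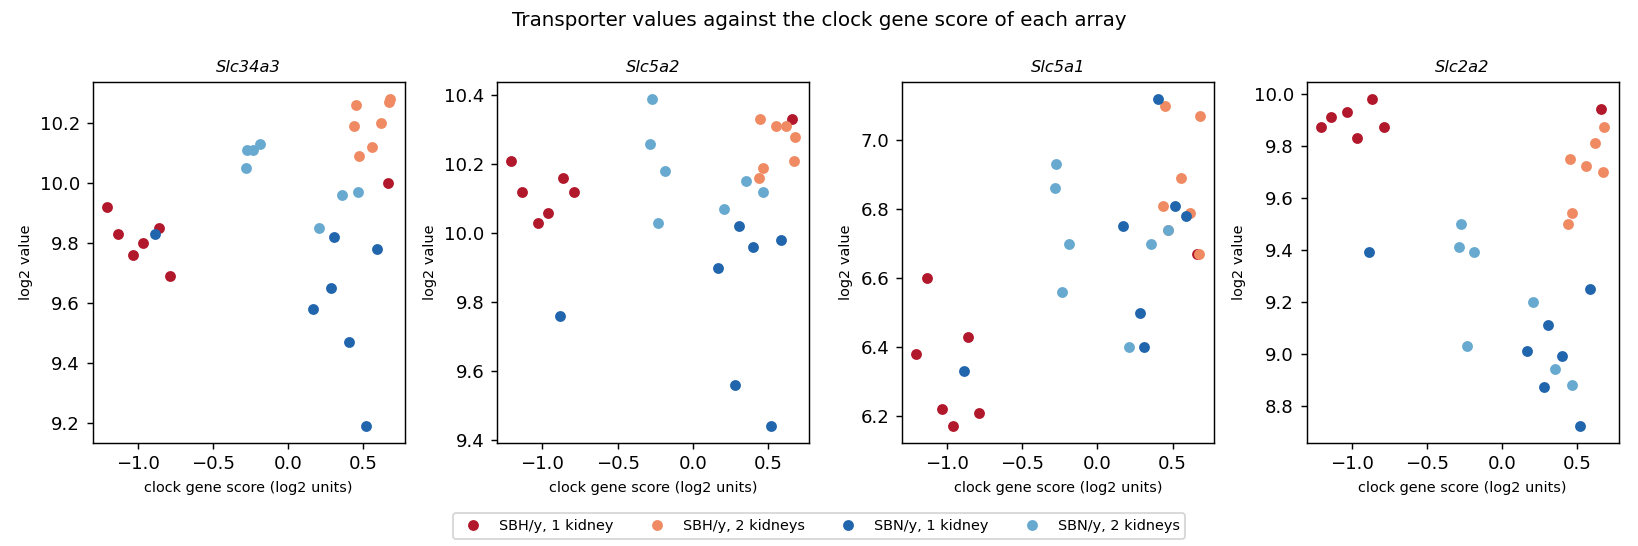
Log2 values of Slc34a3, Slc5a2, Slc5a1 and Slc2a2 (vertical) against the clock gene score of the same array (horizontal, log2 units), 28 arrays coloured by group. SBH/y replicate 2 with 1 kidney, at a score of 0.6608, lies apart from the other 6 arrays of its group, and SBN/y replicate 6 with 1 kidney lies at -0.885.

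Slc2a2 encodes GLUT2, the low-affinity carrier through which glucose leaves the early proximal tubule cell towards the blood. With 1 kidney its lowest, median and highest values were 9.83, 9.91 and 9.98 in SBH/y, against 8.72, 9.01 and 9.39 in SBN/y. With 2 kidneys they were 9.50, 9.72 and 9.87 in SBH/y, against 8.88, 9.20 and 9.50 in SBN/y. The strains were fully apart with 1 kidney and met at a single value with 2 kidneys. The strain difference was 0.86 ± 0.09 with 1 kidney (adjusted p = 1.1e-08) and 0.50 ± 0.09 with 2 kidneys (adjusted p = 0.000113), and both calls held in all 28 fits that left out 1 array. The uninephrectomy difference of Slc2a2 was 0.21 ± 0.09 in SBH/y (adjusted p = 0.178) and -0.15 ± 0.09 in SBN/y (adjusted p = 0.723), and neither passed. With only the SBH/y groups in the fit the first passed (adjusted p = 0.0342). The difference between these effects, 0.35 ± 0.13, had an adjusted p of 0.207. Whether the strains differ in sequence under the probes of these genes was not tested.

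Slc2a1 encodes GLUT1, the widespread carrier that serves later tubule segments, and was lower in SBH/y. With 1 kidney its values ran between 8.11 and 8.31 (median 8.19) in SBH/y, against 8.29 and 8.53 (median 8.40) in SBN/y, with a slight overlap. The difference was -0.21 ± 0.04 (adjusted p = 0.000507). With both kidneys the values ran between 8.11 and 8.33 in SBH/y, against 8.29 and 8.45 in SBN/y, a difference of -0.12 ± 0.04 just short of the threshold (adjusted p = 0.0521). It passed under quantile normalization (-0.15, adjusted p = 0.0137) and without any 1 of SBH/y replicate 2 and SBN/y replicates 2 and 3 with 1 kidney or SBH/y replicate 5 and SBN/y replicates 5 and 6 with 2 kidneys, over values of -0.14 to -0.10. Uninephrectomy gave -0.06 ± 0.04 in SBH/y and 0.03 ± 0.04 in SBN/y, and neither passed.

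Slc2a5 encodes GLUT5, the fructose carrier of the brush border. With 1 kidney its lowest, median and highest values were 7.91, 8.15 and 8.36 in SBH/y, against 7.68, 7.81 and 7.88 in SBN/y, with no overlap. It was higher in SBH/y by 24.5% (0.32 ± 0.09, adjusted p = 0.0069), while with both kidneys the difference was 0.01 ± 0.09 (adjusted p = 0.933). The uninephrectomy differences were 0.18 ± 0.09 in SBH/y and -0.13 ± 0.09 in SBN/y. Neither passed, and the 2-kidney groups, at 7.58 to 8.30 in SBH/y and 7.71 to 8.20 in SBN/y, overlapped almost wholly.

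Over the 9 transporters, uninephrectomy gave 2 lower and 0 higher in SBH/y, where 4.91% of all probe sets were called lower and 3.33% higher. In SBN/y it also gave 2 lower and 0 higher, where 0.242% of all probe sets were called lower and 0.222% higher. Groups did not overlap for 1 transporter in SBH/y (1.96% of all probe sets) and 2 in SBN/y (0.409%). Averaged over the strains, Slc34a3, Slc5a2 and Slc5a1 were lower, 3 of 9 against 3.96% of all probe sets. The average of Slc5a1 was -0.26 ± 0.07 (adjusted p = 0.0302), and this call was lost without the 2 arrays of lowest weight (adjusted p = 0.054) and without any 1 of 10 arrays, SBH/y replicates 4 to 6 and SBN/y replicates 4, 6 and 7 with 1 kidney and SBH/y replicates 1 and 3 and SBN/y replicates 3 and 5 with 2 kidneys, over values of -0.29 to -0.23. The single-strain uninephrectomy calls held in all 28 fits that left out 1 array. The median uninephrectomy difference of the 9 was -0.07 in SBH/y and -0.10 in SBN/y, beside 0.01 and 0.00 over all probe sets.

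Between strains with 1 kidney, Slc2a2, Slc5a2, Slc2a5 and Slc34a3 were higher in SBH/y and Slc2a1 and Slc5a1 lower. These are 4 and 2 of 9, where 11.1% of all probe sets were called higher and 10.3% lower, and 3 of the 9 did not overlap (9.15% of all probe sets). With both kidneys 1 of 9 was higher, Slc2a2, and 0 were lower, where 9.64% of all probe sets were called higher and 8.31% lower. The median strain difference of the 9 was 0.07 with 1 kidney and 0.08 with 2 kidneys, beside -0.01 and -0.02 over all probe sets. The interaction called 0 of the 9 in limma, where 1.41% of all probe sets were called in either direction. At an unadjusted p under 0.05 it held 4 of 9, Slc5a1, Slc2a2, Slc5a2 and Slc2a5, where 11.8% of all probe sets did.

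For the gene lists from here on, the shares of all probe sets called are the background. Between strains they were 11.1% higher and 10.3% lower with 1 kidney, and 9.64% and 8.31% with 2 kidneys. For uninephrectomy they were 3.33% higher and 4.91% lower in SBH/y, and 0.222% and 0.242% in SBN/y. A count near these shares is not read as a result about its list. Genes that regulate phosphate were counted beside the carriers, 22 measured of 23 listed. With 1 kidney 4 were higher and 5 lower in SBH/y than in SBN/y, and with 2 kidneys 5 and 5. Uninephrectomy gave 1 higher and 4 lower in SBH/y, and 0 higher and 1 lower in SBN/y. The lower ones are named after their values were seen. In SBH/y they were Stc2 (-0.81 ± 0.13), Stc1 (-0.66 ± 0.21), Vdr (-0.34 ± 0.10) and Xpr1 (-0.33 ± 0.08). In SBN/y it was Stc2 (-0.59 ± 0.13, adjusted p = 0.032). Of the whole list, the 4 with the smallest p between strains with 1 kidney were Enpp1, Slc34a2, Ptger3 and Pth1r. Slc34a2, the phosphate cotransporter of gut and lung, was higher after uninephrectomy in SBH/y (0.70 ± 0.10, adjusted p = 4.03e-05), with 7.82 to 8.36 with 1 kidney, against 7.27 to 7.57 with 2 kidneys, and no overlap. In SBN/y the difference was 0.10 ± 0.10, and the difference between the strains' effects passed (0.60 ± 0.15, adjusted p = 0.0289). Enpp1, an enzyme that makes pyrophosphate, was lower in SBH/y with 1 kidney by -1.30 ± 0.07, Ptger3, a prostaglandin receptor, by -0.71 ± 0.08, and Pth1r, the parathyroid hormone receptor, by -0.29 ± 0.05 (adjusted p = 0.000155). Kl, the FGF23 co-receptor Klotho, named after its values were seen, was lower in SBH/y by -0.51 ± 0.15 both with 1 and with 2 kidneys (adjusted p of 0.0116 and 0.0127).

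Of 11 measured hexose and related carriers outside the 9, 4 were higher and 3 lower in SBH/y than in SBN/y with 1 kidney, and 3 and 2 with 2 kidneys. Uninephrectomy gave 0 higher and 2 lower in SBH/y and called none in SBN/y. Slc5a12, a lactate carrier of the early proximal tubule, was higher in SBH/y with 1 kidney by 0.82 ± 0.14 and Slc2a9, a urate carrier, by 0.37 ± 0.08, while Slc5a3, a myo-inositol carrier, was lower by -0.53 ± 0.07 and Slc45a3 by -0.61 ± 0.10. Of 14 enzymes and regulators of glucose and fructose handling, 2 were higher and 5 lower in SBH/y with 1 kidney, and 1 and 1 with 2 kidneys. Uninephrectomy gave 0 higher and 2 lower in SBH/y and 0 higher and 1 lower in SBN/y. Akr1b1, aldose reductase, was lower after uninephrectomy in both strains, by -0.33 ± 0.07 in SBH/y and -0.44 ± 0.07 in SBN/y (adjusted p of 0.00284 and 0.00433). Insr, the insulin receptor, was lower in SBH/y with 1 kidney by -0.67 ± 0.13, Sgk1, a kinase that stimulates sodium and glucose carriers, by -0.49 ± 0.11, and Hk1, a hexokinase, by -0.22 ± 0.05.

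Slc2a1 is a known target of hypoxia-inducible factors, and 15 other targets were counted. With 1 kidney 2 were higher and 2 lower in SBH/y than in SBN/y, and with 2 kidneys 3 and 4. Uninephrectomy gave 2 higher and 2 lower in SBH/y and 1 higher and 0 lower in SBN/y. Vegfa and Pdk1, which like Slc2a1 were lower in SBH/y with 1 kidney, differed by -0.33 ± 0.04 and -0.54 ± 0.07, while P4ha1 and Bnip3 were higher by 0.28 ± 0.08 and 0.13 ± 0.04.

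**Figure D4:**
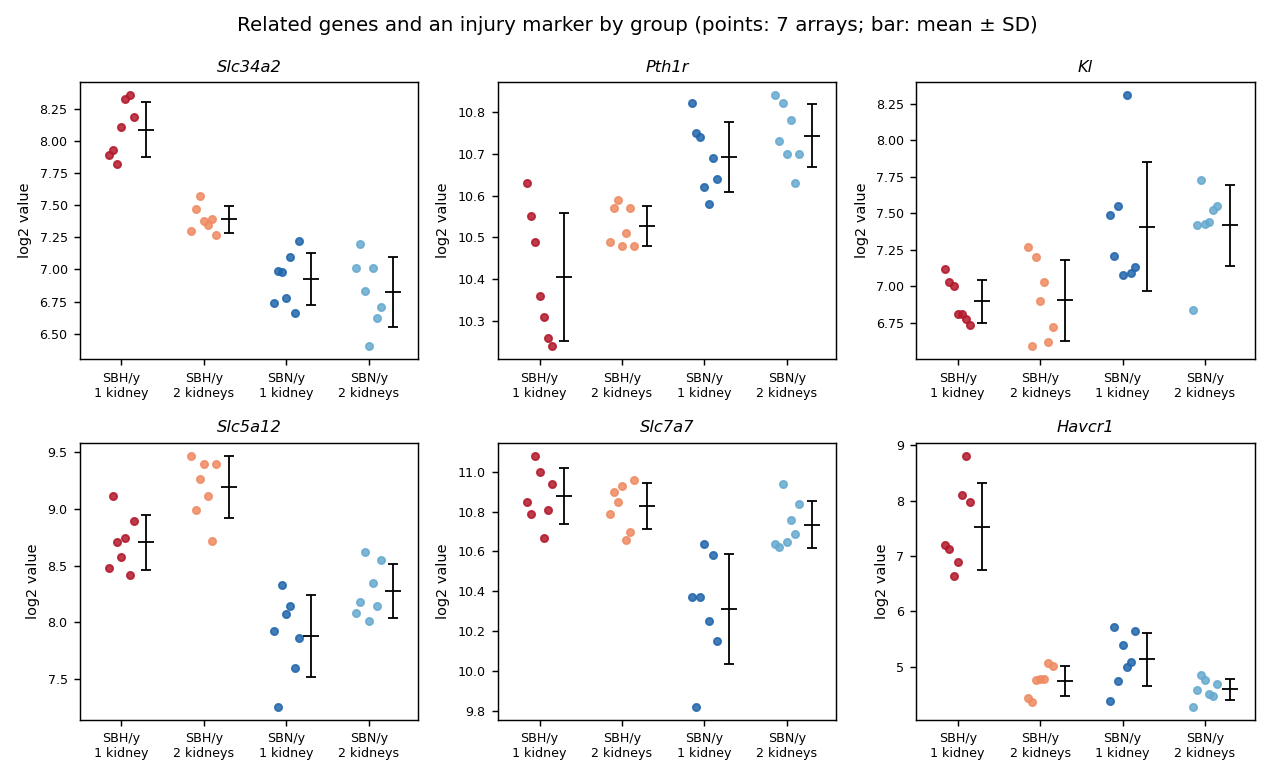
Log2 values (vertical axes, each with its own scale) of Slc34a2, Pth1r, Kl, Slc5a12, Slc7a7 and Havcr1 in the 4 groups; points are the 7 arrays and bars the mean with its SD. Slc34a2 lies at 7.82 to 8.36 in SBH/y with 1 kidney, above the other 3 groups, and so does Havcr1, at 6.64 to 8.81.

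Some markers of the early proximal tubule, the S1 and S2 segments where Slc5a2 and Slc2a2 act, were higher in SBH/y, more of them with 1 kidney. Of 10 measured, among them Slc5a12, which was also counted above, 6 were higher and 0 lower in SBH/y than in SBN/y with 1 kidney, and 2 and 0 with 2 kidneys, and their mean per array lay at -0.01 to 0.15 in SBH/y with 1 kidney, against -0.36 to -0.04 in SBN/y. With 2 kidneys it lay at 0.04 to 0.15 in SBH/y, against -0.13 to 0.09 in SBN/y. Slc7a7, a basolateral amino acid carrier, was higher in SBH/y with 1 kidney by 0.57 ± 0.09, and fell after uninephrectomy in SBN/y by 0.42 on the log2 scale (adjusted p = 0.023), as Slc5a2 did. Slc4a4 was higher in SBH/y with 1 kidney by 0.40 ± 0.07 and Slc22a6, an organic anion carrier, by 0.16 ± 0.05. Not called with 1 kidney, and named after their values were seen, were Slc7a8 (0.10), Hnf4a (0.04), Lrp2 (0.0) and Gatm (0.0). The median strain difference of the 10 was 0.13 with 1 kidney and 0.04 with 2 kidneys. For uninephrectomy, 1 of the 10 was higher and 2 lower in SBH/y, and 0 and 1 in SBN/y. Of 6 measured markers of the late S3 segment, where Slc5a1 acts, 0 were higher and 2 lower in SBH/y with 1 kidney, Acy3 and Slc22a7, and uninephrectomy gave 0 higher and 1 lower in SBH/y and called none in SBN/y. The part of these markers in the transporter results was not tested.

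Injury markers moved with uninephrectomy in SBH/y, where Slc34a3 and Slc5a1 were lower. Slc34a3 was also lower in SBN/y (-0.41 ± 0.07). No injury marker was called there, where 0.222% of all probe sets were called higher and 0.242% lower. The Havcr1 difference in SBN/y was 0.54, with a 95% confidence interval of 0.06 to 1.02 (adjusted p = 0.474 in limma). Beyond the relations with Havcr1 given below, the part of injury in the transporter results was not tested. Of 9 measured injured-tubule markers, 6 were higher and 0 lower in SBH/y, none were called in SBN/y, and 5 were higher and 0 lower in SBH/y than in SBN/y with 1 kidney, and their mean per array lay at 0.20 to 0.75 in SBH/y with 1 kidney, against -0.23 to -0.09 with 2 kidneys. In SBN/y it lay at -0.21 to 0.06 with 1 kidney, against -0.22 to -0.02 with 2 kidneys. Havcr1, the kidney injury molecule of the damaged proximal tubule, averaged 7.53 ± 0.78 with 1 kidney and 4.74 ± 0.26 with 2 kidneys in SBH/y, and 5.13 ± 0.48 and 4.59 ± 0.20 in the same order in SBN/y (SD, n = 7 each). Across the 7 SBH/y arrays with 1 kidney, 0 of 9 relations of a transporter with Havcr1 passed an exact two-sided permutation test after adjustment over the 9 (adjusted p = 0.416 for every Pearson r). Slc34a1 had the largest Pearson r in size, -0.74 (exact permutation p = 0.0679), with rho = -0.64 (exact permutation p = 0.139), and r = -0.65 without the 2 arrays farthest from the median of Havcr1. Slc2a5 had the largest rho in size, -0.68 (exact permutation p = 0.11), with r = -0.67 (exact permutation p = 0.0986), and r = -0.68 without those arrays. For Slc2a2 r was 0.42 (exact permutation p = 0.343) and rho 0.32 (exact permutation p = 0.498), and r was 0.84 without those arrays. For Slc34a3 r was -0.61 (exact permutation p = 0.152) and rho -0.64 (exact permutation p = 0.139), and r was -0.20 without the 2 farthest arrays.

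Of the other cell types, the 4 measured podocyte markers were all lower in SBH/y after uninephrectomy, with a mean per array of -0.55 to -0.04 with 1 kidney, against 0.06 to 0.18 with 2 kidneys. Also lower after uninephrectomy in SBH/y were 2 of 4 endothelial, 1 of 6 collecting duct and 1 of 4 red blood cell markers, and 0 were higher in each. The collecting duct and the red blood cell marker are the same gene, Slc4a1, an anion exchanger of both cell types, which is on both lists and is also counted under both between the strains. Uninephrectomy in SBH/y called 2 of 4 distal convoluted tubule markers higher and 1 lower, 1 of 6 thick ascending limb markers higher, 1 of 6 macrophage markers higher and 0 of 5 fat markers. In SBN/y it called 1 distal convoluted tubule and 1 thick ascending limb marker higher and none of the other cell types here. Between strains with 1 kidney, 5 of 6 thick ascending limb, 4 of 4 podocyte, 4 of 4 endothelial, 3 of 6 collecting duct, 2 of 4 distal convoluted tubule and 1 of 4 red blood cell markers were lower in SBH/y, as Slc2a1 was, and 4 of 6 macrophage and 1 of 5 fat markers were higher. With 2 kidneys, 3 thick ascending limb, 3 collecting duct, 2 distal convoluted tubule and 2 fat markers were lower in SBH/y. So were 1 endothelial and 1 red blood cell marker, while 3 macrophage markers and 1 podocyte marker were higher. The part of these cell types in the transporter results was not tested.

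The genes closest in pattern to Slc34a3 and Slc5a1 were taken as those with the smallest root mean square difference over the 28 arrays, each gene centred on its own mean. For Slc34a3 they were Fmo1 (0.137), Agxt2 (0.139) and Myrf (0.143), beside a root mean square of 0.254 of Slc34a3 about its own mean. For Slc5a1 they were Ddx3x-ps1 (0.139), Ddx17 (0.155) and Bag4 (0.161), beside 0.26 for Slc5a1 itself. These are descriptions over arrays that share the groups and the clock difference above.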

How the data were processed

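Total RNA of 28 rat kidney samples was labelled with biotin and read on 1-colour Affymetrix arrays, per the labels' protocols. The authors deposited 1 table of log2 values for 31099 probe sets, made with GCOS and RMA per the submitters' processing notes. Their versions and any scan batches are not stated there. Because RMA quantile-normalizes the probes, a difference in total RNA between samples would not show. Detection was not tested, as scanner files were not used here. The number of arrays limits the precision.

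After 57 control probe sets were left out, names came from the platform annotation and were brought up to date by matching its gene identifiers to RefSeq's GRCr8 table: 20826 had 1 symbol, 436 several and 9780 none, and 20758 were matched while 68 kept the platform's symbol. The correlation between arrays lay between 0.985 and 0.997, and 0 columns were duplicates.

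Differences were fitted with limma 3.58.1 in R 4.3.3 (lmFit, eBayes), with 1 mean per group over all 28 arrays, 6 contrasts and Benjamini-Hochberg adjustment over 31042 probe sets at 0.05. Strain differences are SBH/y minus SBN/y, uninephrectomy differences 1 kidney minus 2 kidneys, and the interaction is the SBH/y effect minus the SBN/y effect. The value after ± is the standard error for a difference and the SD for a mean. Tested on simulated data with 200 of 31042 probe sets changed, the fit recovered 97% of changes of 0.5 log2 units for uninephrectomy in SBH/y, 98% in SBN/y and 83% for the interaction, and 100%, 100% and 99% of changes of 1 unit. The simulated noise was independent between arrays and between probe sets. All uninephrectomy and interaction differences of the transporters were smaller in size than 0.5, and changes that small were not simulated. These shares therefore do not give the power for the transporters.

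The 9 genes and all gene lists were chosen with earlier results of these data known. All 9 are named whatever their values, as are Havcr1, up to 4 genes of a described list with the smallest p between the strains with 1 kidney, and the 3 genes of closest pattern. Alternatives were quantile normalization, median centring, leaving out the dimmest 40% of probe sets, the mean of a gene's probe sets, trended and robust variances, array weights, only the groups compared, a replicate block, the clock score as a covariate, each array left out, and 2 chosen after seeing the data: without the 2 arrays apart in clock score, and without the 2 of lowest weight.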

Additional observations from a re-analysis of the deposited data

Results flagged for a closer look

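Of 36 sets of 7 values, 9 genes in 4 groups, 3 held a value set far apart from the rest of its group by Dixon's test, and chance flags about 1 in 20. Slc34a1 in SBN/y with 1 kidney was at 12.70 in replicate 7, below 12.88 to 12.97 in the other arrays. Slc20a1 in SBH/y with 1 kidney was at 8.66 in replicate 6, below 8.79 to 8.85. Slc20a1 in SBH/y with 2 kidneys was at 8.63 in replicate 6, below 8.73 to 8.78. Those 2 arrays of SBH/y each held their group's lowest value for 5 of the 9 transporters and had the lowest array weights of the 28 in limma, 0.528 with 1 kidney and 0.361 with 2 kidneys.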

How the results depend on the processing

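Outside the fits that left out 1 array, 527 single-gene values kept their direction and their side of the threshold, 19 gained a call, 15 lost one and 15 reversed. The number of transporters called between strains with 2 kidneys was 1, and became 2 under quantile normalization, without dim probe sets, with the mean of probe sets, trended and robust variances, array weights, only the groups compared, the clock covariate and without either pair of arrays, and 3 with the replicate block. With only the groups compared, 0 were called for uninephrectomy in SBN/y, and 4 instead of 6 between strains with 1 kidney. With the clock covariate, 3 were called between strains with 1 kidney, 0 for uninephrectomy in SBH/y and 1, Slc34a3, averaged over the strains. Without the 2 arrays apart in clock score, 1 was called for the interaction, Slc5a1, for which those arrays lay at the edges of their groups. Over the fits without 1 array, 4 to 6 were called between strains with 1 kidney, 1 to 3 with 2 kidneys, 2 to 3 averaged over the strains, 2 for uninephrectomy in either strain and 0 for the interaction. Same-numbered arrays correlated by -0.095 to 0.586 in their deviations, with a median of 0.16 and 24 of 42 pairs over 0.1, and differently numbered ones with a median of -0.03 and 57 of 252 pairs over 0.1. By this measure 14 of 28 arrays correlated best with their own number, a hint of pairing from the data. As the labels give no shared batch and not every pair was over 0.1, the number was not taken as pairing. The replicate block called 5 averaged over the strains, gaining Slc34a1 (-0.09, adjusted p = 0.049) and Slc20a1 (0.08, adjusted p = 0.0313). Between strains it gained Slc20a1 with 1 kidney (adjusted p = 0.0304) and Slc2a1 and Slc20a2 with 2 kidneys (adjusted p of 0.037 and 0.0166), and it lost no call. Reversed values, none of them called before or after, were as follows. Slc2a5 between strains with 2 kidneys was -0.01 under quantile normalization. With the mean of probe sets, Slc34a1 was -0.00187 and -0.02 between strains with 1 and 2 kidneys, and Slc20a2 -0.04 averaged over the strains. Slc2a2 averaged over the strains was -0.00272 with array weights. With the clock covariate, Slc20a2 was 0.13 for uninephrectomy in SBH/y and 0.09 for the interaction, Slc34a3 -0.02 for the interaction, and Slc2a5, Slc2a1 and Slc2a2 were -0.02, 0.01 and -0.05 averaged over the strains. Without the 2 arrays apart in clock score, Slc20a2 was -0.01 between strains with 1 kidney, Slc5a1 0.03 for uninephrectomy in SBN/y and Slc2a2 -0.00105 averaged over the strains. Without the 2 of lowest weight, Slc20a2 was -0.01 averaged over the strains. Leaving out 1 array gave -0.05 to 0.08 for Slc2a5 between strains with 2 kidneys, -0.10 to 0.03 for Slc5a1 after uninephrectomy in SBN/y, -0.01 to 0.04 for Slc34a1 and -0.03 to 0.08 for Slc34a3 in the interaction, and -0.01 to 0.06 for Slc2a5 and -0.02 to 0.02 for Slc20a2 averaged over the strains. The cause of these changes was not tested.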
